A study of Mus musculus with 15 samples.

Results

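The aldo-keto reductases described here are 8 genes of the family, chosen by symbol, out of 55335 gene identifiers in the count files. They are Akr1c13, Akr1c12, Akr1c6, Akr1c18, Akr1a1, Akr1b3, Akr1b8 and Akr7a5. The group was drawn up around Akr1c13, which was picked from the genes with the largest difference between the knockout and wild-type libraries of these same data. The differences of the members in that contrast are therefore given as a description, with no test. RNA was sequenced from cultured mouse pre-B cells, the B lymphocyte precursors of bone marrow that carry a pre-B cell receptor. Every library came from untreated cells labelled as lacking SLP65 (the adaptor encoded by Blnk that relays signals of that receptor), expanded from a single bone marrow cell and kept in interleukin 7. The wild-type group is this line with Msl2 unedited, and the knockout group is the line obtained after electroporation of a guide RNA against Msl2, which encodes the ubiquitin ligase of the MSL histone acetylation complex. Each group had 3 libraries, from 1 line per genotype. The labels do not say whether these were separate cultures, so the spread between them may be technical. With 1 line per genotype, an effect of Msl2 cannot be told apart from any other difference between the lines.

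The titles and genotype tags of all 6 RNA libraries contradict each other. Groups were set by title, so each direction given here would turn if the tags were right. Msl2 RNA was present in both groups, at 96.3 ± 3.6 (wild type) and 110 ± 9.9 CPM (knockout; SD, n = 3 each), and does not check the labels, since a small edit can leave the transcript in place. Blnk RNA was present in all 6 libraries too, at 98.3 ± 19 (wild type) and 112 ± 4.1 CPM (knockout; SD, n = 3 each), so these counts do not check the SLP65 label either. CPM is a gene's reads per 1000000 reads of its library, after TMM scaling. Total reads ranged from 14092278 to 20803227 per library, so 1 read was worth between 0.047 and 0.071 CPM. Of 10 pre-B markers all had reads, and their summed level was 2071 to 2225 CPM in the wild-type and 2071 to 2094 CPM in the knockout libraries. Summed levels of 12 myeloid markers were 1.19 to 2.03 and 0.924 to 2.18 CPM, with Lyz2, Elane, Ly6g, S100a8 and S100a9 at 0 reads. Of 8 mast cell and basophil markers, 7 were at 0 reads (Cpa3, Kit, Mcpt8, Fcer1a, Ms4a2, Tpsb2 and Cma1). Those of 8 T and NK cell markers summed to 2.06 to 4.68 and 3.3 to 4.6 CPM. The 6 stromal markers reached at most 0.132 CPM in any library, with Pdgfrb, Cxcl12, Dcn and Lum at 0 reads.

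Aldo-keto reductases are mostly NADPH-dependent enzymes that turn aldehydes and ketones into alcohols. The AKR1A and AKR1B enzymes act mainly on sugars and small aldehydes, the AKR1C enzymes on ketosteroids, prostaglandins and foreign ketones, and the AKR7 enzymes on dialdehydes. In mice the AKR1C genes form a tandem cluster of close copies, one of which, Akr1c12, is known as a gene regulated by interleukin 3 in myeloid progenitors. Several family members are also textbook targets of NRF2, the transcription factor of the oxidative stress response.

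Akr1c13 and Akr1c12 have almost the same start region, and these sequences are shown because the genes gave very different read counts. Of 297 aligned bases of their RefSeq promoter windows (GRCm38.p6, from 250 bases before to 50 after the start), 284 were identical (95.6%), 12 differed and 1 was a gap. Akr1c13 lies on the plus strand (window chr13:4190937-4191236) and Akr1c12 on the minus strand (window chr13:4279350-4279649). Capitals mark the bases that differ from the other gene, the gap included.
Akr1c13: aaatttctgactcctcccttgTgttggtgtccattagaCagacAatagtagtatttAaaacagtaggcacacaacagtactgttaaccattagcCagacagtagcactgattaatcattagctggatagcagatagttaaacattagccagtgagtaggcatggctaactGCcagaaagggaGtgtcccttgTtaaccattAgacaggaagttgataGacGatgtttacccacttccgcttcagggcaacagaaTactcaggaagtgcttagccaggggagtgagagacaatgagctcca
Akr1c12: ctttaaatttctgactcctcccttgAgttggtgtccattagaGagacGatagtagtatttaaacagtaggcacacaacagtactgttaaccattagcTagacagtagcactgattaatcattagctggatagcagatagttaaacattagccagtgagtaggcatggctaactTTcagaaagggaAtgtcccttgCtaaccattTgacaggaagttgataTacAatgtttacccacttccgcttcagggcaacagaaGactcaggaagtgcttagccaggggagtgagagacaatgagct

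Both windows hold a repeated 6-base word, CATTAG (searched on both strands). Akr1c13 has 5 copies, starting 219, 163, 135, 109 and 53 bases before the start, and Akr1c12 has 4, the copy nearest the start being altered by a differing base. Of 32851 RefSeq windows of this length, 7.36% hold at least 1 copy and 3 hold at least 4, those of Akr1c13, Akr1c12 and Gm34098. The word was noticed in these sequences and then counted. Each window also holds 3 copies of GGAAGT, the core word of ETS factors, which 23.8% of windows hold at least once and 4.18% at least 2 times. Each holds 1 copy of TGTTTAC, a forkhead word found in 3.65% of windows. Neither holds TGACNNNGC, the NRF2 element (12.4% of windows), CCATNTT, a YY1 word (16.1%), or TTCNNNGAA, the STAT element (8.3%), which says only that these letters are not in the window. All words were searched on both strands, and a match is no evidence of binding. None of these matches overlaps another, and no binding data were analysed here.

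Akr1a1, the most read member, has more CG pairs at its start than Akr1c13 or Akr1c12. Its window (GRCm38.p6, chr4:116651625-116651924, minus strand) is shown with each CG pair in capitals.
Akr1a1: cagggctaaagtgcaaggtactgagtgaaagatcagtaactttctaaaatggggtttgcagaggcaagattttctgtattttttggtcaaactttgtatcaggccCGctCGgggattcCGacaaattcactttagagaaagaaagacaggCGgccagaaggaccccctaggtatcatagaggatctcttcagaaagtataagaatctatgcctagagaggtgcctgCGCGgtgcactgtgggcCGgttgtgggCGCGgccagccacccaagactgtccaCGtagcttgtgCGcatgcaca
It holds 11 CG pairs, against 2 in each of Akr1c13 and Akr1c12, 0 in Akr1c6, 5 in Akr1c18, 10 in Akr1b8, 27 in Akr7a5 and a median of 7 over all windows. Among all windows it is ordinary, as 58.6% hold fewer CG pairs and its G and C share is 50%, against a median of 52.7%. RefSeq windows were matched for 7 of the 8 members, and none for Akr1b3.

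Akr1c13 (ENSMUSG00000021213.12, chromosome 13, 4191168 to 4205604, mm10), whose enzyme acts on ketones and hydroxysteroids, was the member that stood high in the knockout. It had 38, 25 and 44 reads in wild-type replicates 1, 2 and 3 and 426, 403 and 377 reads in knockout replicates 1, 2 and 3. In scaled units these were 2.68, 1.41 and 2.92 CPM against 26.5, 18.9 and 24.9 CPM. The lowest knockout library was far above the highest wild-type library, and the library numbered 2 was the lowest of each group. The mean was 2.34 ± 0.81 CPM for the wild type and 23.4 ± 4 CPM for the knockout (SD, n = 3 each). On the log2 scale the knockout was higher by 3.34 ± 0.24 (SE), or 10.1-fold. Among 13077 tested genes it ranked 15 by log2 fold change. The value ran from 3.06 to 3.55 over fits that each left out 1 library, the lowest without wild-type replicate 2, and was 3.20 without both libraries numbered 2. Prg2, the one mast cell and basophil marker with reads, had 3, 5 and 2 reads in the wild-type and 6, 7 and 5 reads in the knockout libraries (0.133 to 0.282 against 0.329 to 0.373 CPM). These groups did not overlap either, as in 20.9% of tested genes, but Prg2 was too low to be tested. The other 7 markers of that list had 0 reads in every library. Whether such cells had a part in the Akr1c13 difference was not tested. As RNA was measured in bulk, a few cells with much Akr1c13 RNA and many cells with little cannot be told apart.

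**Figure D1:**
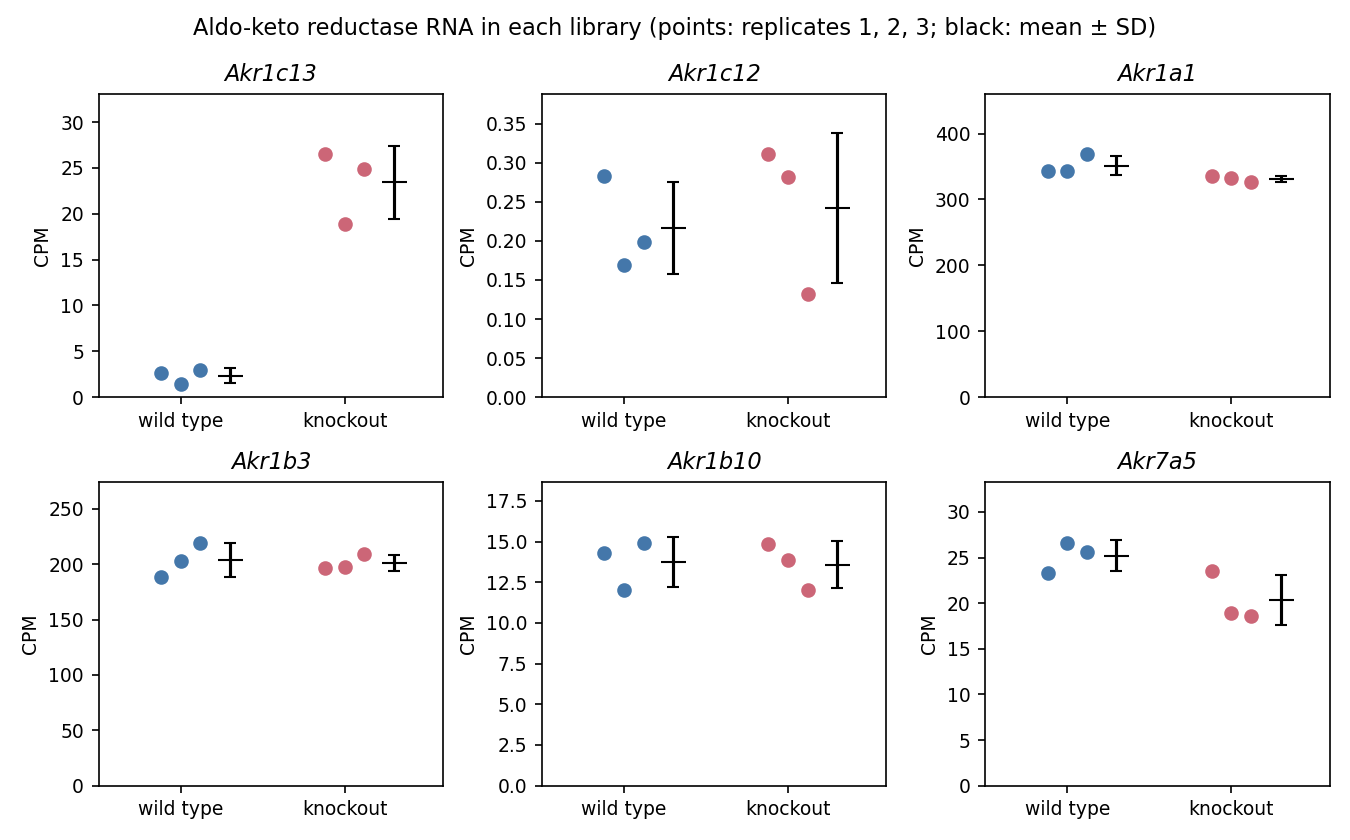
RNA level of 6 aldo-keto reductases (CPM, linear axes from 0, a scale of its own in each panel) in the 3 wild-type (blue) and 3 knockout (red) libraries, with the mean ± SD in black. Akr1c13 lies at 1.41 to 2.92 CPM in the wild type and 18.9 to 26.5 CPM in the knockout, whereas the other panels differ little or overlap.

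Akr1c12 (ENSMUSG00000021211.4, chromosome 13, 4268172 to 4279399) lies in the same cluster, with 62.6 kb and Akr1c19 between it and Akr1c13. Akr1c12 had few reads in both groups. It had 4, 3 and 3 reads in the wild-type and 5, 6 and 2 reads in the knockout libraries. The groups overlapped, and it was too low to enter the fit. Pooled over libraries, the ratio of knockout to wild type was 1.16 with an exact 95% interval from 0.471 to 2.96, which covers counting error only. The same ratio of pooled Akr1c13 reads, the gene picked for its difference, was 10.1. Akr1c12 made up 10 of 117 reads of the pair in the wild type (8.55%, 6.38% to 10.7% by library) and 13 of 1219 in the knockout (1.07%, 0.528% to 1.47% by library). Close copies can share or lose reads in alignment, and how reads with several matches were treated is not given in the sources used here. With the reads of both genes summed to 1 feature, the log2 fold change was 3.23.

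The rest of the chromosome 13 cluster was almost silent in both groups. It spans 560 kb from Akr1c14 to Akr1e1 (4048991 to 4609164). Akr1c18 (ENSMUSG00000021214.14, 4132615 to 4150646), the enzyme that inactivates progesterone, had 0 reads in all 6 libraries, which allows up to 0.0302 CPM over the 6 libraries (3 reads, counting error only). Akr1c6 (ENSMUSG00000021210.16, 4434311 to 4457530), a hydroxysteroid dehydrogenase of liver, had 1 read, in wild-type replicate 1. Akr1c14, Akr1c19, Akr1c20, Akr1c21 and Akr1e1, which are not among the 8, had 0 reads as well. For scale, 51.8% of all gene identifiers had 0 reads in every library.

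**Figure D2:**
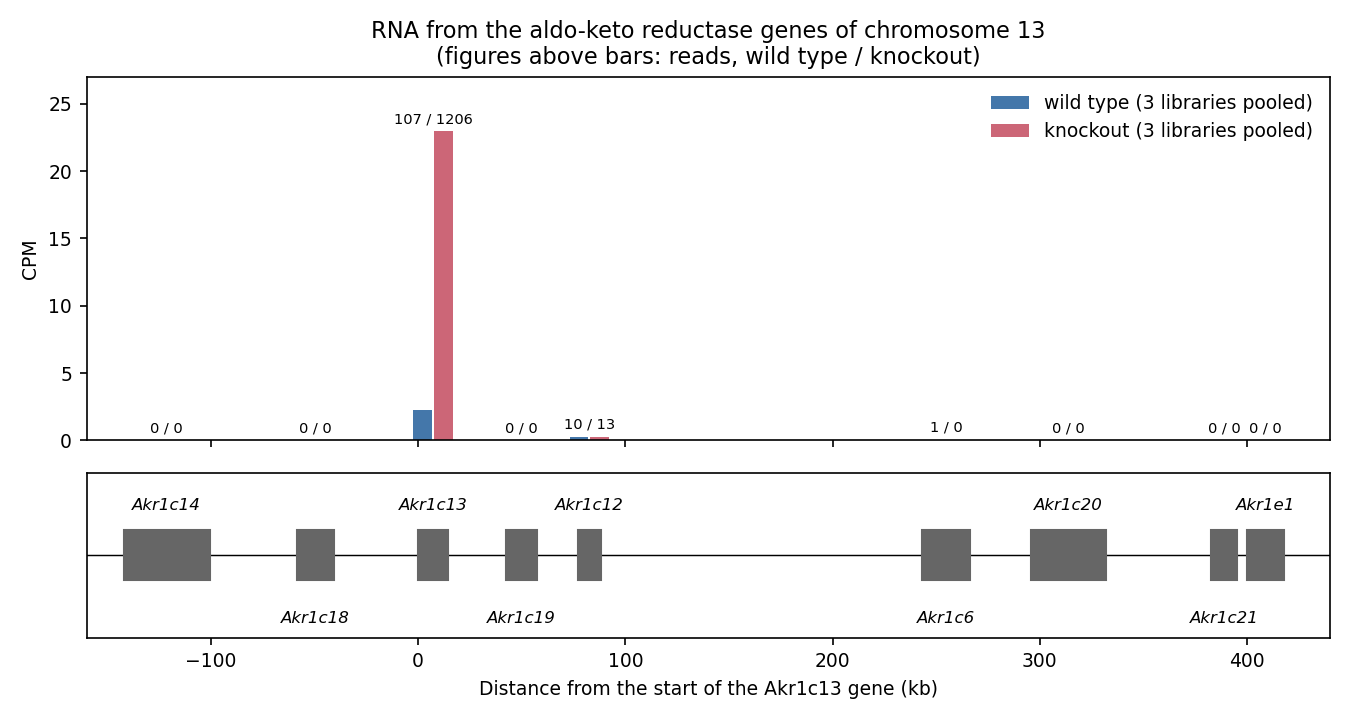
Genes of the chromosome 13 cluster by distance from the start of Akr1c13 (kb, lower panel) and their level in pooled wild-type and knockout libraries (CPM, upper panel, with reads above the bars). Akr1c13 carries 107 and 1206 reads, Akr1c12 carries 10 and 13, Akr1c6 carries 1 and 0, and the other genes carry 0.

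Genes beside the cluster were measured to see whether the difference extended past it. Net1, a RhoA exchange factor 214 kb before the members of the cluster, was at 76.5 and 74.5 CPM in wild type and knockout (log2 fold change -0.04 ± 0.09 (SE), adjusted p 0.913 in edgeR's quasi-likelihood test). Asb13, a ubiquitin ligase adaptor 479 kb before them, was at 11.6 and 11.8 CPM (adjusted p 0.965). These were the 2 tested genes within 500 kb, and 0 were called by edgeR or DESeq2, with 0 at an unadjusted p under 0.05. On the other side the nearest tested gene was Klf6, a zinc finger transcription factor 1404 kb away, at 23.5 and 36 CPM (log2 0.62 ± 0.20 (SE), adjusted p 0.145). Klf6 passed without wild-type replicate 1 (adjusted p 0.0417), in DESeq2 (0.0324), with the replicate number as a block (0.00933) and without a filter on low counts (4.89e-06).

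Akr1a1 (ENSMUSG00000028692.14, chromosome 4, 116636510 to 116651674) encodes aldehyde reductase, which in mice also reduces glucuronate on the way to ascorbate. It was at 343, 343 and 369 CPM in the wild-type and 336, 333 and 327 CPM in the knockout libraries. The knockout libraries were all below the wild-type libraries, by a small step. Wild-type libraries averaged 351 ± 15 CPM and knockout libraries 332 ± 4.4 CPM (SD, n = 3 each). The log2 fold change was -0.08 ± 0.07 (SE) and stayed between -0.10 and -0.05 over 14 other settings.

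Akr1b3 (ENSMUSG00000001642.18, chromosome 6, 34303930 to 34317489) encodes aldose reductase, which turns glucose into sorbitol in the polyol pathway. It was at 189, 203 and 219 CPM in the wild-type and 196, 198 and 210 CPM in the knockout libraries. The knockout values lay within the wild-type range, with a log2 fold change of -0.02 ± 0.08 (SE). Its sign turned with library totals only (0.0035) and when either wild-type replicate 3 (0.041) or knockout replicate 2 (0.0028) was left out. Akr1b8 (ENSMUSG00000029762.6, chromosome 6, 34354146 to 34368461), a related reductase induced by fibroblast growth factor, had 0 reads in all 6 libraries, with the same limit as Akr1c18.

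Akr7a5 (ENSMUSG00000028743.7, chromosome 4, 139310720 to 139318786) reduces succinic semialdehyde and toxic dialdehydes. It was at 23.3, 26.6 and 25.6 CPM in the wild-type and 23.5, 18.9 and 18.6 CPM in the knockout libraries. Knockout replicate 1 lay among the wild-type libraries and the other knockout libraries below them. Wild-type libraries averaged 25.2 ± 1.7 CPM and knockout libraries 20.3 ± 2.8 CPM (SD, n = 3 each). The log2 fold change was -0.31 ± 0.12 (SE), between -0.43 without knockout replicate 1 and -0.21 without both libraries numbered 2.

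Of the 8 members, 4 had enough reads to be tested across all genes (Akr1c13, Akr1a1, Akr1b3 and Akr7a5), and Akr1c12, Akr1c6, Akr1c18 and Akr1b8 did not. At an adjusted p under 0.05, 1 of these 4 was called higher, Akr1c13, against 1.8% of all tested genes, and 0 were called lower, against 2.79%. Akr1c13 was the gene the group was built around, so nothing is read from this count. Groups did not overlap for 2 of the 4, Akr1c13 and Akr1a1, against 20.9% of tested genes. Summed over the 8 members, the level was 558 to 617 CPM in the wild-type and 569 to 582 CPM in the knockout libraries. Akr1c13 gave 0.246% to 0.481% of these reads in the wild type and 3.33% to 4.55% in the knockout. Read counts of different genes also depend on transcript length, and no exon lengths were used here, so the members are not ranked by level.

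**Figure D3:**
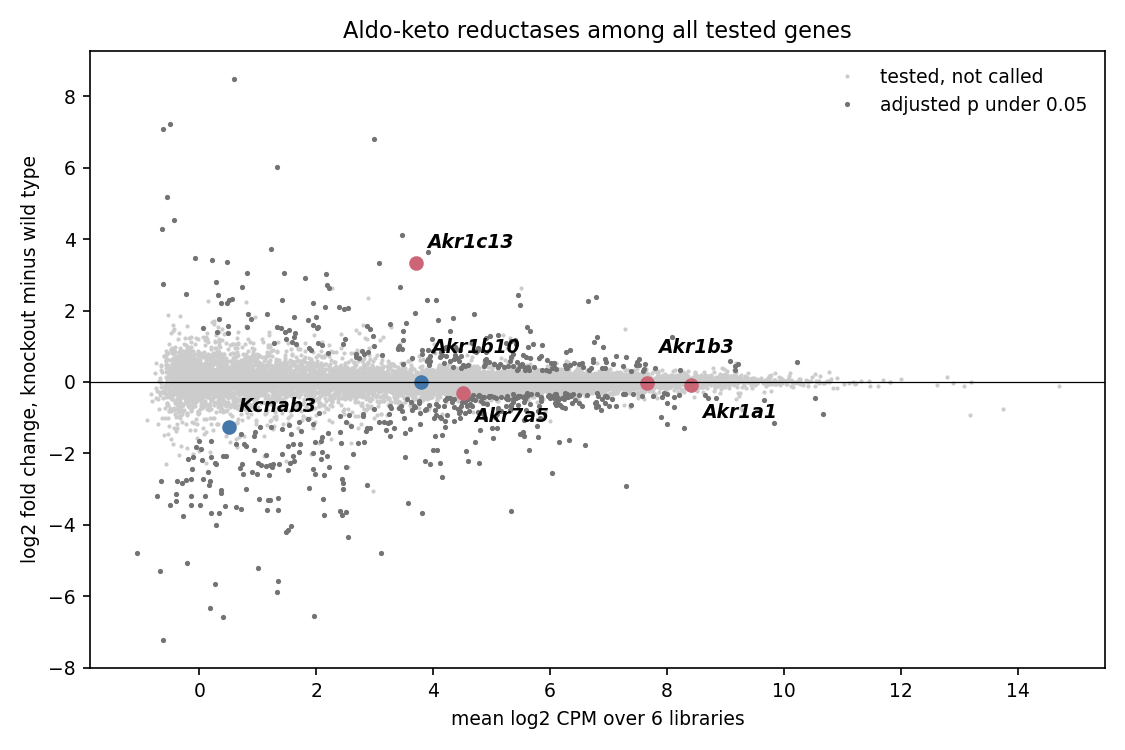
Log2 fold change (knockout minus wild type) against mean log2 CPM for 13077 tested genes, with tested aldo-keto reductases in colour (red, members; blue, other family genes) and genes with an adjusted p under 0.05 in dark grey. Akr1c13 stands at 3.34, while Akr1a1, Akr1b3, Akr7a5 and Akr1b10 lie between -0.31 and -0.01 and Kcnab3 lies at -1.25.

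Of 13 further family genes listed, 10 had rows in the files, and 8 of these had 0 reads (Akr1b7, Akr1cl and Akr1d1 besides the 5 of the chromosome 13 cluster named above). Akr1b10 (ENSMUSG00000061758.13), a reductase in the Akr1b cluster, was at 14.3, 12 and 14.9 CPM in the wild-type and 14.9, 13.8 and 12 CPM in the knockout libraries. The groups overlapped, with a log2 fold change of -0.01 ± 0.13 (SE) and an adjusted p of 0.983 in edgeR, and its sign turned with library totals only (0.0085) and without wild-type replicate 1 (0.013), wild-type replicate 3 (0.053) or knockout replicate 3 (0.067). Kcnab3 (ENSMUSG00000018470.8), a potassium channel beta subunit with the aldo-keto reductase fold, was at 1.77, 1.92 and 1.86 CPM in the wild-type and 1.24, 0.798 and 0.264 CPM in the knockout libraries. Its knockout libraries were all below the wild type, but it missed the threshold (log2 -1.25 ± 0.43 (SE), adjusted p 0.164) and passed it without a filter on low counts (adjusted p 0.029). Of these 2 tested genes, edgeR and DESeq2 called 0, and 1, Kcnab3, had an unadjusted p under 0.05. Kcnab1 and Kcnab2 were not analysed here.

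Among 6 tested neighbours within 500 kb of Akr1b3 and Akr1b8, Akr1b10 included, 1 was called, against 4.59% of all tested genes. Exoc4, of the vesicle-tethering exocyst, averaged 140 CPM in wild-type and 108 CPM in knockout libraries (log2 -0.38 ± 0.09 (SE), adjusted p 0.0378 in edgeR). Leaving out any 1 of wild-type replicates 1 and 2 and knockout replicates 1 and 3 ended this call (adjusted p 0.0841 to 0.128). Slc35b4, a nucleotide sugar transporter, and Bpgm, of red cell glycolysis, which flank these genes more closely, had log2 fold changes of -0.17 ± 0.10 and 0.15 ± 0.14 (SE), and neither passed.

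Genes that share carbonyl substrates with the aldo-keto reductases were taken as lists. Of 18 tested short-chain carbonyl reductases and hydroxysteroid dehydrogenases, 2 fell and 0 rose, against 2.79% lower and 1.8% higher over all tested genes. Their median log2 fold change was -0.18, against 0.004 over all tested genes. In edgeR 8 of the 18 had an unadjusted p under 0.05, and for 9 the groups did not overlap, against 20.9% of tested genes. Dhrs13, a short-chain dehydrogenase, fell from 20.1, 17.8 and 23.8 CPM in the wild-type to 10.9, 13.1 and 11.8 CPM in the knockout libraries (log2 -0.78 ± 0.13 (SE), adjusted p 0.00772 in edgeR). Hsd11b1, which regenerates active glucocorticoid, fell from 17.9, 15.1 and 12.3 CPM to 6.34, 10.5 and 5.15 CPM (log2 -1.02 ± 0.24 (SE), adjusted p 0.0425). Hsd11b1 missed the threshold when any 1 of these libraries was left out (wild-type replicates 1 and 2, knockout replicates 1 and 3; adjusted p 0.0838 to 0.143). It also missed it with library totals only (0.0793) and with only genes above a mean log2 CPM of 2 (0.0666).

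None of 12 tested aldehyde and alcohol dehydrogenases passed in edgeR or DESeq2 (0 called by each). Their median log2 fold change was -0.07, and 2 had an unadjusted p under 0.05 in edgeR. For 3 of the 12 the groups did not overlap, against 20.9% of tested genes. The one with the smallest p was Aldh4a1, of proline breakdown, at 3.37 and 5.56 CPM (log2 0.72 ± 0.19 (SE), adjusted p 0.0619, and 0.0463 with the replicate number as a block). The polyol and glucuronate pathways, into which aldose and aldehyde reductase feed, gave 0 calls among 8 tested genes in edgeR and 2 in DESeq2 (Ugp2 higher, Cryl1 lower). Over all 13077 tested genes DESeq2 called 327 higher and 466 lower. The median of the 8 was -0.04, and 4 had an unadjusted p under 0.05 in edgeR. For 2 of the 8 the groups did not overlap, against 20.9% of tested genes. Ugp2, which makes UDP-glucose, was at 60.3 ± 5.7 and 77.5 ± 5.3 CPM (SD, n = 3 each). It sat at the threshold, with a log2 fold change of 0.36 ± 0.09 (SE) and an adjusted p of 0.0503 in edgeR, 0.0137 in DESeq2, 0.0199 with the replicate number as a block and 0.023 without wild-type replicate 3. Cryl1, which oxidises the gulonate made by aldehyde reductase, was at 18.2, 15 and 16.5 CPM in the wild-type and 13.4, 11.4 and 10.2 CPM in the knockout libraries, all below the wild type (log2 -0.51 ± 0.13 (SE), adjusted p 0.065 in edgeR). Sord, which oxidises the sorbitol made by aldose reductase, was at 102 ± 7.5 and 119 ± 8 CPM (SD, n = 3 each; log2 0.22 ± 0.08 (SE), adjusted p 0.22). Gulo, Rgn and Miox, of ascorbate synthesis and inositol breakdown, had 0 reads.

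Of 18 tested NRF2 target genes, a list without aldo-keto reductases, 1 fell and 0 rose, against 2.79% lower and 1.8% higher over all tested genes. Log2 fold changes were positive for 11 and negative for 7 (median 0.08). In edgeR 9 of the 18 had an unadjusted p under 0.05, and for 8 the groups did not overlap, against 20.9% of tested genes. Hmox1, the heme oxygenase, fell from 4.38, 4.17 and 3.12 CPM to 0.808, 1.13 and 0.33 CPM (log2 -2.31 ± 0.37 (SE), adjusted p 0.00532 in edgeR). Its knockout libraries were all below the wild type, with 42 reads in the knockout against 183 in the wild type. DESeq2 also called Ptgr1, a prostaglandin and alkenal reductase, and Ftl1, the ferritin light chain, higher; in edgeR their log2 fold changes were 0.33 ± 0.10 and 0.26 ± 0.08 (SE), with adjusted p 0.0854 and 0.0964. The 11 tested regulators of NRF2 gave 0 calls in edgeR and in DESeq2, a median of 0.02, and 2 genes with an unadjusted p under 0.05 in edgeR. For 2 of the 11 the groups did not overlap, against 20.9% of tested genes. Nfe2l2, which encodes NRF2, was at 72.8 ± 3 and 85.6 ± 6.3 CPM (SD, n = 3 each; log2 0.23 ± 0.08 (SE), adjusted p 0.154). Whether NRF2 had a part in the Akr1c13 difference was not tested.

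Of the interleukin 3 receptor genes, 2 of 3 were tested and 1 fell, against 2.79% of all tested genes, a count too small to read. Csf2rb, the signalling chain shared with the receptors of GM-CSF and interleukin 5, fell from 131, 149 and 151 CPM in the wild-type to 101, 109 and 109 CPM in the knockout libraries (log2 -0.43 ± 0.08 (SE), adjusted p 0.0112 in edgeR). Its call was lost without both libraries numbered 2 (adjusted p 0.143). Csf2rb2, the other tested gene, was at 10.5, 9.87 and 7.7 CPM in the wild-type and 6.72, 6.24 and 4.42 CPM in the knockout libraries. It was not called (log2 -0.68 ± 0.20 (SE), adjusted p 0.0886 in edgeR). For both tested genes the groups did not overlap, as in 20.9% of all tested genes. Il3ra had 3, 5 and 0 reads in the wild-type and 9, 10 and 5 reads in the knockout libraries and was not tested. Il7r, the receptor chain for the interleukin in the medium, was at 82 ± 12 and 28.1 ± 11 CPM (SD, n = 3 each; adjusted p 0.00392) and was the one called gene of the 10 pre-B markers.

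**Figure D4:**
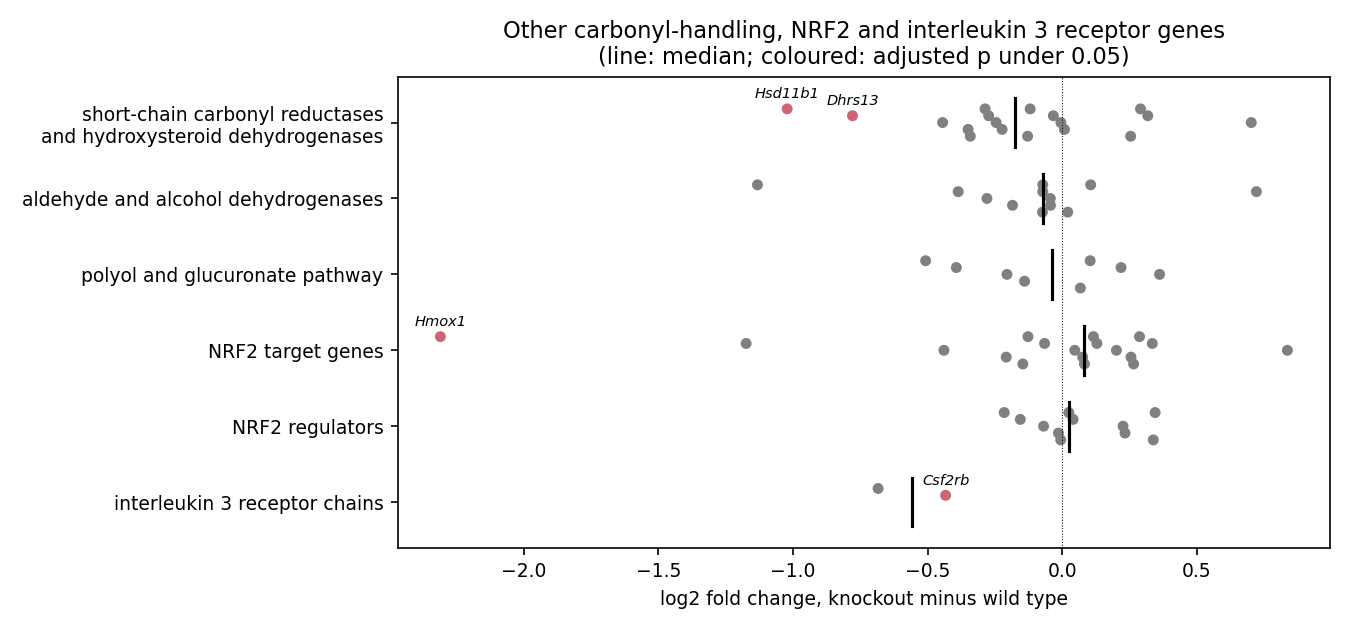
Log2 fold change (knockout minus wild type) of each tested gene in 6 lists, with the list's median as a black line and genes with an adjusted p under 0.05 in red. The called genes Hsd11b1, Dhrs13, Hmox1 and Csf2rb all lie below 0, and the medians run from -0.56 to 0.08.

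The tested genes whose log2 CPM followed Akr1c13 most closely over the 6 libraries were Rap2a (Pearson r 0.996), Smc6 (0.995), Gm38391 (0.993), Arl6 (0.993) and Ncoa7 (0.991). Any gene that separates the groups gives a high r with Akr1c13, and their own differences were far smaller. Rap2a, a RAS-like GTPase, was at 13.9 ± 0.94 and 23 ± 1.7 CPM, Arl6, a small GTPase of the primary cilium, at 12.6 ± 0.42 and 17.5 ± 0.73 CPM, and Smc6, of the SMC5/6 genome maintenance complex, at 357 ± 5.3 and 407 ± 6.6 CPM (SD, n = 3 each).

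**Figure D5:**
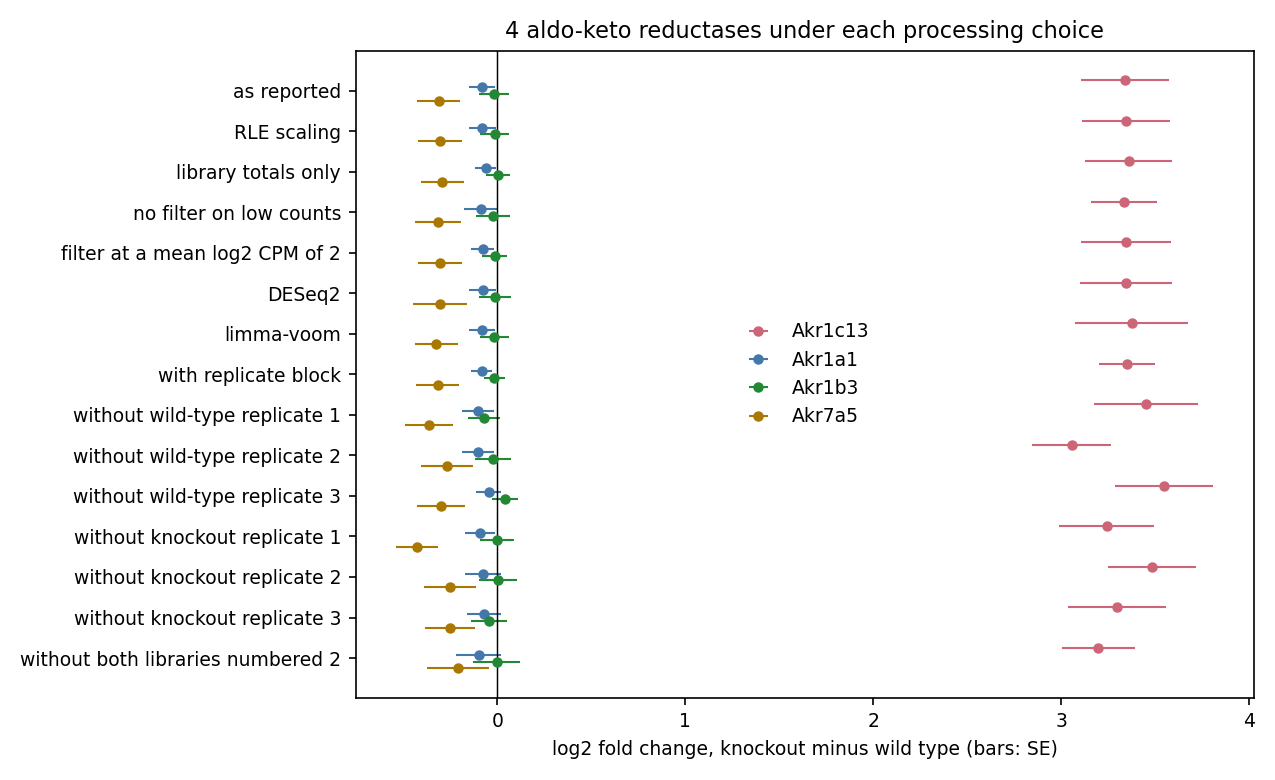
Log2 fold change (knockout minus wild type, bars are SE) of the 4 tested members as reported and under 14 other processing choices. Akr1c13 stays between 3.06 and 3.55, whereas Akr1a1, Akr1b3 and Akr7a5 stay between -0.43 and 0.04.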

How the data were processed

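The authors deposited 1 file of raw counts per RNA library, whole numbers of reads per gene without normalisation. Per the labels' protocols, ribosomal RNA was removed from total RNA with magnetic beads. STAR 2.5.3a, featureCounts 2.0.0 and mm10 appear in the submitters' processing notes, with no role or order. The annotation, strandedness and multi-mapping rules were not given in the sources used here. The 9 samples from chromatin were not analysed here.

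Of 55335 identifiers, 54587 matched a symbol. Genes kept by filterByExpr (13077) were compared after TMM scaling by the quasi-likelihood test of edgeR 4.0.16 without covariates (R 4.3.3), with Benjamini-Hochberg adjustment over all of them and a threshold of 0.05. SE is the fold change over the root of F. Counts at an unadjusted p under 0.05 are given without the share of all tested genes, so nothing is read from them. Every pair of libraries differed by more than counting noise (chi-square per degree of freedom 7.38 to 33.1). Scripts were tested on simulated data. Alternatives used RLE scaling, library totals, other filters, DESeq2 1.42.0, limma-voom 3.58.1, the replicate number as a block, each library left out, and both libraries numbered 2 left out (added after the data were seen). Positions and promoter windows are from RefSeq (GRCm38.p6, which is mm10), matched by symbol.

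The members and lists were chosen with earlier results of these data known. Genes named are the 8 members, other family genes with at least 10 reads, up to 2 called genes per direction of each list or else the one with the smallest p, the 5 genes most correlated with Akr1c13 (log2 CPM, prior count 2), and the nearest tested neighbours. Asb13, Exoc4, Bpgm, Slc35b4, Csf2rb2, Il3ra, Prg2, Cryl1, Sord, Ptgr1, Ftl1 and genes with 0 reads were named after their values were seen. Of the marker lists, only the pre-B genes had a called gene. Fcgr3 (adjusted p 0.914) and Trac (0.63) had the smallest p of the tested myeloid and of the T and NK cell markers.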

Additional observations from a re-analysis of the deposited data

How the results depend on the processing

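The log2 fold change of Akr1c13 ran from 3.06 to 3.55 over the alternatives run, given as a description since the gene was picked from these libraries. The numbers of genes called over the whole table, 235 higher and 365 lower, moved more. They were 482 and 721 without a filter on low counts, 381 and 565 with the replicate number as a block, 175 and 224 without both libraries numbered 2, and 327 and 466 in DESeq2, and 231 were lower with only genes above a mean log2 CPM of 2. Leaving out each library gave 138 to 227 higher and 242 to 316 lower, the fewest without wild-type replicate 1. Over all lists, 5 genes were called, 13 without a filter, 9 in DESeq2, 11 with the block, and 4 to 9 when each library was left out (9 without wild-type replicate 3). These counts describe the settings, and nothing is read from them about the lists. Exoc4, the 1 called neighbour, was lost with library totals only (0 called), with that stricter filter (0), without both libraries numbered 2 (0) and in some of the fits without 1 library (0 to 1). The cause of these changes was not tested, and some of the fits hold fewer genes or samples.

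The labels state no pairing of libraries by replicate number, and the main fit used none. Deviations from the group means correlated at 0.029, 0.212 and 0.403 between libraries numbered 1, 2 and 3. Of 6 libraries, 4 correlated best with their own number, so some pairing by number remains possible. Depth limits Akr1c12 (2 to 6 reads per library), for which a ratio between 0.471 and 2.96 was within counting error. Akr1c6, Akr1c18 and Akr1b8 had at most 1 read, too few to show a difference.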
